A study of Mus musculus with 16 samples.

Results

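Ribosome biogenesis factors are the proteins that transcribe, cut, modify and fold ribosomal RNA and load it with ribosomal proteins, mostly in the nucleolus. They were taken here as 39 genes given by symbol, all of which were found among the 34573 gene symbols of the deposited count table, and they were followed across 4 states of mouse CD8+ T cells. RNA polymerase I makes a single long precursor RNA, small nucleolar ribonucleoproteins (snoRNPs) guide its methylation and pseudouridylation, and large assemblies then cut it and build the small and the large ribosomal subunit. Naive T cells are small and make few ribosomes, and stimulation through the T cell receptor makes them grow and divide, with Myc as a well-known driver of ribosome production.

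The cells came from spleens of C57BL/6 mice and were studied in culture. Naive CD8+ T cells (Tn, day 0) were sorted as CD44- CD62L+. The other states had been stimulated with antibodies to CD3e and to CD28, each at 10 µg/ml, the first part of the T cell receptor complex and the second a co-stimulatory receptor, and received IL-2 at 300 U/ml after the first night. Teff1 (day 2) and Teff2 (day 5) were sorted as PD-1+ TIM-3-, and Tex (day 5) as PD-1+ TIM-3+, PD-1 and TIM-3 being receptors that restrain T cells. Each state had 3 RNA-seq libraries from 0.2 M cells each. The labels give no age or sex. Whether the 3 libraries of a state stem from different mice is also not given, and each p-value therefore reflects library-to-library spread, possibly only technical. The 4 Hi-C samples of the series were not analysed here.

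Libraries held 14.7 to 21.2 M counts, and the lowest count of any member in any library was 329, so no member was near the limit of detection. All 39 passed the filter on low counts, beside 14332 genes in all. The 7 CD8 T cell markers were detected in every state, with summed levels of 3604 to 5185 counts per M counts (CPM) in Tn and 2527 to 3007 CPM in the activated states. Other spleen cells were most visible in Tn. The sum of 8 B cell markers was 1415, 629 and 2337 CPM in Tn replicates 1, 2 and 3 and 91.0 to 292 CPM in the activated libraries, where Pax5 was at 0 in Teff2 and Tex. The sum of 5 MHC class II genes was 1422, 119 and 2230 CPM in Tn and 29.0 to 127 CPM later. The sum of 8 macrophage and monocyte markers was 299, 83.6 and 159 CPM in Tn and 4.39 to 12.0 CPM later. Marco, C1qa, C1qb and Vcam1 were at 0 in Teff2, and Marco was also at 0 in Tex. The sum of 5 erythroid markers was 159, 147 and 73.3 CPM in Tn and 0.306 to 7.45 CPM later. The sum of 6 NK cell markers, several of which activated CD8 T cells also express, was 87.6 to 244 CPM in Tn and 97.4 to 207 CPM in Teff1. It was 204 to 511 CPM in Teff2 and 290 to 462 CPM in Tex. Klra8 was at 0 in Teff1 and Teff2, and Ncr1 was at 0 in Teff2.

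The first comparison set Teff1 against Tn. Teff1 differed from Tn in day, antibodies, IL-2 and the markers sorted on, and no unstimulated culture was in the series. The parts of these factors therefore cannot be told apart, here or for the day 5 states against Tn. Ribosome biogenesis factors rose nearly throughout. By the quasi-likelihood test of edgeR, with Benjamini-Hochberg adjusted p over all genes, 38 of 39 members were higher in Teff1 (adjusted p under 0.05) and none was lower, beside 24.5% of all tested genes called higher and 24.5% called lower. The median fitted change of the members was 1.12 on the log2 scale, with a range of 0.60 to 2.03, and that of all tested genes was -0.06. In 38 members no Teff1 library overlapped a Tn library, beside 29.6% of all genes with higher, non-overlapping libraries. Together the 39 genes took 0.445% to 0.487% of all counts in Tn and 1.01% to 1.54% in Teff1. In these bulk samples a change in the share of cells that express a gene and a change in RNA per cell cannot be told apart, and CPM do not show the total RNA of a cell.

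Of the Tn libraries, replicate 2 had the lowest sums of B cell, MHC class II, NK cell and macrophage markers, while its erythroid sum, at 147 CPM, was above that of replicate 3. Against this library alone the median rise of the members was 1.01 on the log2 scale and all 39 fitted values stayed above 0, but 12 members were called, beside 9.96% of all genes called higher in that fit. The lone Tn library is there assumed to vary like the other groups. The part of other cell types in the rise was not tested.

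**Figure D1:**
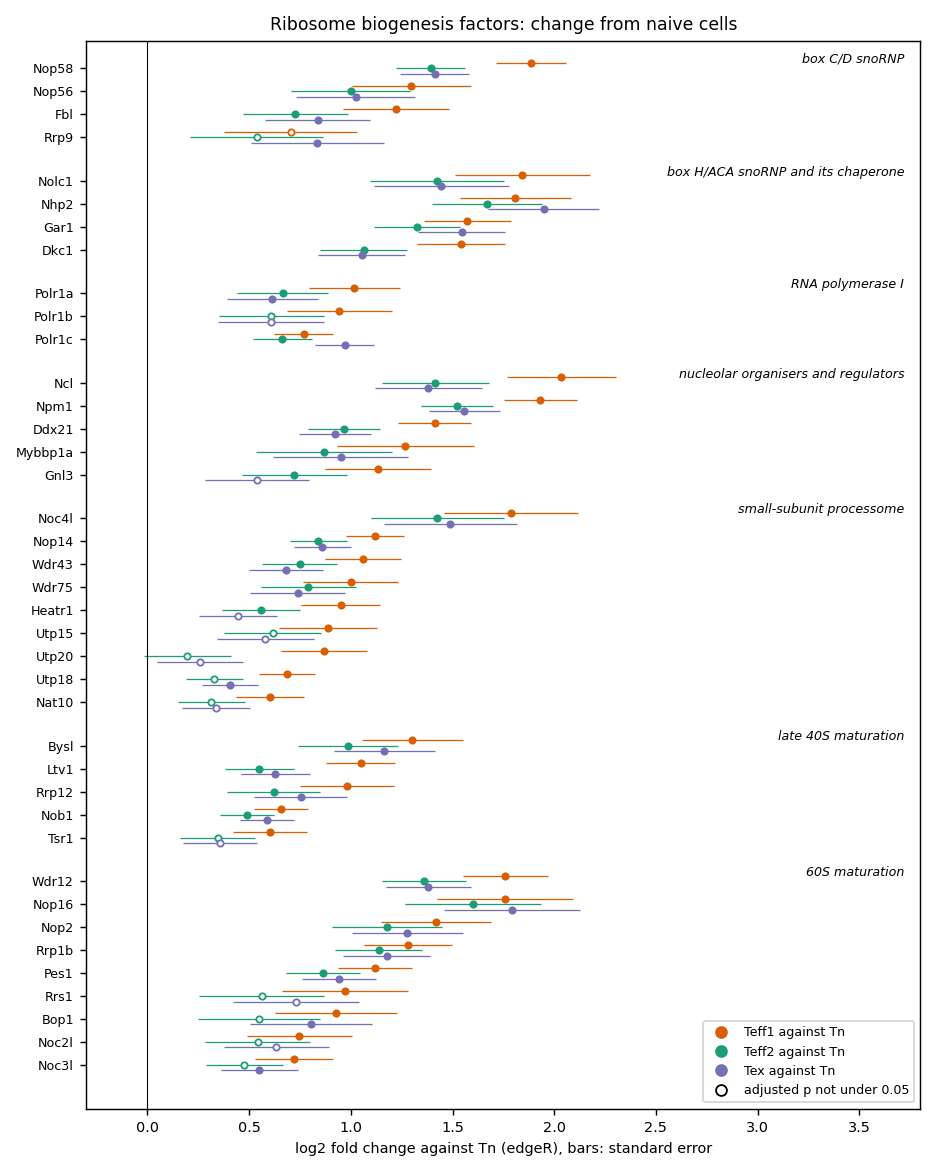
Fitted log2 fold change of each of the 39 members against Tn in Teff1 (orange), Teff2 (green) and Tex (violet), grouped by role; bars are standard errors and open circles mark adjusted p values not under 0.05. All fitted values lie above 0, from 0.20 for Utp20 in Teff2 to 2.03 for Ncl in Teff1.

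Of the 39 members, 34 had a promoter window in a RefSeq table (build GRCm38.p6, the same assembly as mm10), which spans 250 bases before to 50 after the start of the gene. Fbl, Npm1, Rrp12, Bop1 and Rrs1 had none. Since the members moved together, their windows were searched on both strands for CACGTG, the E-box letters bound by Myc with Max. The palindrome was present in 8 of 34 member windows (23.5%), in 8.09% of the windows of all 27025 genes in the table and in 11.7% of those of the 9267 genes that were also tested here. The 8 are shown with up to 12 bases on either side and with the E-box in capitals, each read 5′ to 3′ on the strand of the gene.
Mybbp1a, chr11:72441355-72441376, plus strand: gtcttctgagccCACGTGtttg
Wdr43, chr17:71616220-71616249, plus strand: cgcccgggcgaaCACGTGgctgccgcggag
Utp18, chr11:93885769-93885798, minus strand: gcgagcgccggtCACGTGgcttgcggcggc
Utp20, chr10:88826765-88826789, minus strand: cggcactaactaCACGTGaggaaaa
Ltv1, chr10:13193092-13193121, minus strand: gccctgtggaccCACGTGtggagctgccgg
Tsr1, chr11:74898092-74898121, plus strand: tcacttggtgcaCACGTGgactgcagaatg
Pes1, chr11:3963965-3963994, plus strand: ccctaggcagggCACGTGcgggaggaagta
Nop2, chr6:125131811-125131840, plus strand: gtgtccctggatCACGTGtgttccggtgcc
The first base of the E-box lay at -60 in Nop2, at -20 in Utp18, and from 3 to 41 bases after the start in the other 6. At day 2 the fitted rises of these 8 members ranged from 0.60 (Tsr1) to 1.42 (Nop2) on the log2 scale. Ncl and Nop58, with larger rises, have no CACGTG in this window. A match in these letters is a description and not evidence of binding, and its absence says only that the letters are not in the window.

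CGGAAG, the core recognised by ETS factors, was present in 18 of 34 member windows (52.9%, against 18.8% of all genes and 35.02% of tested genes), and GGGCGG, the GC box of Sp1, in 26 (76.5%, against 38.2% and 67.3%). CCAAT, the box of NF-Y, was present in 11 (32.4%, against 41.1% and 43.0%). The first 250 bases of the windows of Nop2 and Ncl show both arrangements, with the first 3 of these motifs in capitals on either strand. Nop2 was chosen as a member with all 3 motifs in its window, and Ncl for the largest rise. The windows of Mybbp1a, Utp18, Utp20, Ltv1 and Tsr1 also hold all 3.
Nop2, chr6:125131633-125131882, plus strand: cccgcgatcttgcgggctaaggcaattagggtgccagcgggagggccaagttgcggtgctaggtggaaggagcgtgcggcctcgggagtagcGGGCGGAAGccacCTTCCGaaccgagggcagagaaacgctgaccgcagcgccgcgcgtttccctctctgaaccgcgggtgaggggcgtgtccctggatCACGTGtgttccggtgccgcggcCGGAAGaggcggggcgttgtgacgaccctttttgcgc
Ncl, chr1:86359456-86359705, minus strand: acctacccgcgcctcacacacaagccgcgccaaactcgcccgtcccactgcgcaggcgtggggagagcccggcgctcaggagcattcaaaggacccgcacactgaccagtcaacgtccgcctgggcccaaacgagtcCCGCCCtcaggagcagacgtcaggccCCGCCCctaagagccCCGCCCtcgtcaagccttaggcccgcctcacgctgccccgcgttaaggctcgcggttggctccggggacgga
Nop2 holds CACGTG once, CGGAAG 3 times and GGGCGG once, the last overlapping a CGGAAG, whereas the Ncl stretch holds GGGCGG 3 times and neither of the others.

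The nucleolar organisers and regulators were Ncl, Npm1, Gnl3, Mybbp1a and Ddx21, and all 5 rose at day 2, with a median of 1.41 on the log2 scale. Ncl encodes nucleolin, an abundant RNA-binding protein of the nucleolus (chromosome 1, 86344719 to 86359455). Its level was 692, 633 and 540 CPM in Tn replicates 1, 2 and 3, and 2008, 2089 and 3547 CPM in Teff1. At day 5 it was 1234, 2092 and 1646 CPM in Teff2 and 1312, 1874 and 1670 CPM in Tex. Every activated library stood above every Tn library, and Teff1 replicate 3 stood far above the other activated libraries. The change from Tn to Teff1 was 2.03 (SE 0.27, adjusted p = 1.35e-04, edgeR). Npm1 encodes nucleophosmin, a histone and ribosome chaperone that forms the outer layer of the nucleolus (chromosome 11, 33152498 to 33164142). It had 669, 646 and 500 CPM in Tn, against 2186, 1924 and 2814 CPM in Teff1, a change of 1.93 (SE 0.18, adjusted p = 1.44e-05). At day 5 its libraries lay close together, at 1681, 1757 and 1775 CPM in Teff2 and 1825, 1762 and 1759 CPM in Tex, all below the lowest Teff1 library. Npm1 has close copies in the genome, and how reads that match several places were counted is not stated. Ddx21, an RNA helicase that acts in both transcription and rRNA processing, rose by 1.41 (adjusted p = 1.04e-04). Mybbp1a, a nucleolar Myb-binding protein, rose by 1.27 (adjusted p = 0.00847), and Gnl3, the GTP-binding protein nucleostemin, rose by 1.13 (adjusted p = 0.00381).

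The box C/D snoRNP, which methylates ribose in rRNA, has the products of Fbl, Nop56 and Nop58 among its proteins. These genes all rose at day 2, while Rrp9 did not pass the test. Fbl encodes fibrillarin, the methyltransferase itself (chromosome 7, 28168893 to 28179269). It had 155, 172 and 164 CPM in Tn, against 249, 340 and 555 CPM in Teff1, a rise of 1.22 (SE 0.26, adjusted p = 0.00254, edgeR). The scaffold protein Nop56 (chromosome 2, 130274367 to 130279313) had 214, 207 and 182 CPM in Tn, against 329, 525 and 628 CPM in Teff1, a rise of 1.30 (SE 0.29, adjusted p = 0.00354). In both genes the Teff1 libraries were in the same order, with replicate 1 lowest and replicate 3 highest. Its partner Nop58 (chromosome 1, 59684961 to 59711510) had 101, 102 and 95.9 CPM in Tn, against 348, 319 and 436 CPM in Teff1, a rise of 1.89 (SE 0.17) with the smallest adjusted p of all members, 1.39e-05. Rrp9, the protein specific to the U3 snoRNP that guides early cuts (chromosome 9, 106477309 to 106485415), had 73.5, 71.2 and 62.7 CPM in Tn, against 70.5, 115 and 152 CPM in Teff1. Its Teff1 replicate 1 lay inside the Tn range while the other replicates lay above it, and the fitted difference of 0.70 (SE 0.33) had an adjusted p of 0.0934. Rrp9 was called higher with no filter on low counts, in the fit on the 6 Tn and Teff1 libraries alone and without Teff1 replicate 1.

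The box H/ACA snoRNP converts uridine to pseudouridine, and all 4 genes of this group rose, with the highest median of the 7 role groups, 1.69 on the log2 scale. Nhp2, a core RNA-binding subunit (chromosome 11, 51619773 to 51623718), had 62.8, 60.5 and 56.1 CPM in Tn, against 142, 169 and 318 CPM in Teff1, a rise of 1.81 (SE 0.27, adjusted p = 3.02e-04, edgeR). Nolc1, a phosphoprotein that shuttles snoRNPs through the nucleolus (chromosome 19, 46075847 to 46085543), had 99.8, 115 and 101 CPM in Tn, against 248, 321 and 564 CPM in Teff1, a rise of 1.84 (SE 0.33, adjusted p = 9.47e-04). Teff1 replicate 3 was again the highest library in both genes. Dkc1, the pseudouridine synthase dyskerin, rose by 1.54 (adjusted p = 1.97e-04). Gar1, a subunit that helps release the modified RNA (chromosome 3, 129824912 to 129831407), rose by 1.57 (SE 0.21, adjusted p = 1.58e-04), from 56.5, 54.3 and 52.2 CPM to 131, 148 and 206 CPM.

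The 3 subunits of RNA polymerase I rose by less, with a median of 0.94. Polr1a, the largest subunit (chromosome 6, 71909053 to 71979435), had 75.7, 88.4 and 76.4 CPM in Tn, against 112, 180 and 194 CPM in Teff1, a rise of 1.02 (SE 0.22, adjusted p = 0.00304, edgeR). Polr1b, the second catalytic subunit (chromosome 2, 129100970 to 129128060), had 63.0, 76.1 and 69.8 CPM in Tn, against 90.6, 141 and 170 CPM in Teff1, a rise of 0.94 (SE 0.26, adjusted p = 0.0105). Polr1c, which is shared with RNA polymerase III, varied little between Teff1 libraries, which is why it is named here after its values were seen. It had 58.1, 52.4 and 56.1 CPM in Tn, against 92.4, 94.96 and 96.4 CPM in Teff1, so its Teff1 libraries were nearly equal, and it rose by 0.77 (SE 0.14, adjusted p = 0.00121).

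The small-subunit processome is the large particle that makes the first cuts in the precursor and folds the future small-subunit RNA. All 9 of its genes rose, with a median of 0.95 and a range of 0.60 to 1.79. Wdr43 (chromosome 17, 71616178 to 71659031), part of the subcomplex that binds the precursor while it is still transcribed, had 128, 146 and 127 CPM in Tn, against 221, 297 and 318 CPM in Teff1, a rise of 1.06 (SE 0.19, adjusted p = 7.69e-04, edgeR). Heatr1, of the same subcomplex (chromosome 13, 12395375 to 12438893), had 103, 130 and 116 CPM in Tn, against 185, 238 and 252 CPM in Teff1, a rise of 0.95 (SE 0.19, adjusted p = 0.00189). Utp15 of this subcomplex rose by 0.89 (adjusted p = 0.00989), and Wdr75 rose as well (adjusted p = 0.00439). In all 4 genes every Teff1 library stood above every Tn library. Noc4l, which works with Nop14, had the largest rise of the group, 1.79 (adjusted p = 0.00106), and Nop14 rose by 1.12 (adjusted p = 1.04e-04). Nat10, the enzyme that acetylates cytidine in rRNA (chromosome 2, 103721258 to 103762954), had, with Tsr1, the smallest rise of the 38 called members, from 87.3, 106 and 99.1 CPM to 120, 153 and 171 CPM, or 0.60 (SE 0.17, adjusted p = 0.0105).

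The late factors of the small subunit accompany its precursor out of the nucleus and finish it in the cytoplasm, and all 5 rose, with a median of 0.98. Rrp12, an export factor (chromosome 19, 41859483 to 41896153), had 64.4, 75.3 and 57.6 CPM in Tn, against 100, 134 and 155 CPM in Teff1, a rise of 0.98 (SE 0.23, adjusted p = 0.00439, edgeR). Nob1, the nuclease that makes the last cut of the small-subunit rRNA (chromosome 8, 107412489 to 107425038), had 83.3, 83.2 and 73.1 CPM in Tn, against 118, 125 and 134 CPM in Teff1, a rise of 0.66 (SE 0.13, adjusted p = 0.00187). Tsr1, which blocks early joining of the subunits (chromosome 11, 74898080 to 74909340), had 64.8, 63.3 and 55.1 CPM in Tn, against 85.5, 89.8 and 103 CPM in Teff1, a rise of 0.60 (SE 0.18, adjusted p = 0.0167). Nob1 and Tsr1 thus rose by small amounts with no overlap between Tn and Teff1. The call of Tsr1 ended without Teff1 replicate 3 or without Tn replicate 3. Bysl, an assembly factor, and Ltv1, an export adaptor, rose by 1.30 and 1.05.

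Maturation of the large subunit was represented by 9 genes, which all rose, with a median of 1.12 and a range of 0.72 to 1.76. Pes1, Bop1 and Wdr12 form a complex needed to process the large-subunit RNA, and they rose by 1.12, 0.93 and 1.76. Wdr12 (chromosome 1, 60071361 to 60098500) had 21.8, 29.0 and 23.8 CPM in Tn, against 74.1, 78.8 and 99.6 CPM in Teff1 (SE 0.21, adjusted p = 7.06e-05, edgeR). Nop2, an rRNA cytosine methyltransferase (chromosome 6, 125131883 to 125144753), had 67.5, 81.0 and 74.2 CPM in Tn, against 137, 182 and 276 CPM in Teff1, a rise of 1.42 (SE 0.27, adjusted p = 0.00134). Noc2l (chromosome 4, 156234655 to 156247616), whose yeast counterpart helps move the large-subunit precursor through the nucleus, had 173, 174 and 169 CPM in Tn, against 183, 300 and 383 CPM in Teff1. Teff1 replicate 1 of Noc2l was barely above Tn, and the call of its rise of 0.75 (SE 0.26, adjusted p = 0.0313) ended when any of Tn replicates 1, 2 or 3 or Teff1 replicates 2 or 3 was left out, with fitted values of 0.51 to 0.75 in those fits. The call of Bop1 ended in the same 5 fits, and that of Rrs1 without Tn replicate 1, Tn replicate 3 or Teff1 replicate 3. Nop16, Rrp1b, Rrs1 and Noc3l rose by 1.76, 1.28, 0.97 and 0.72.

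**Figure D2:**
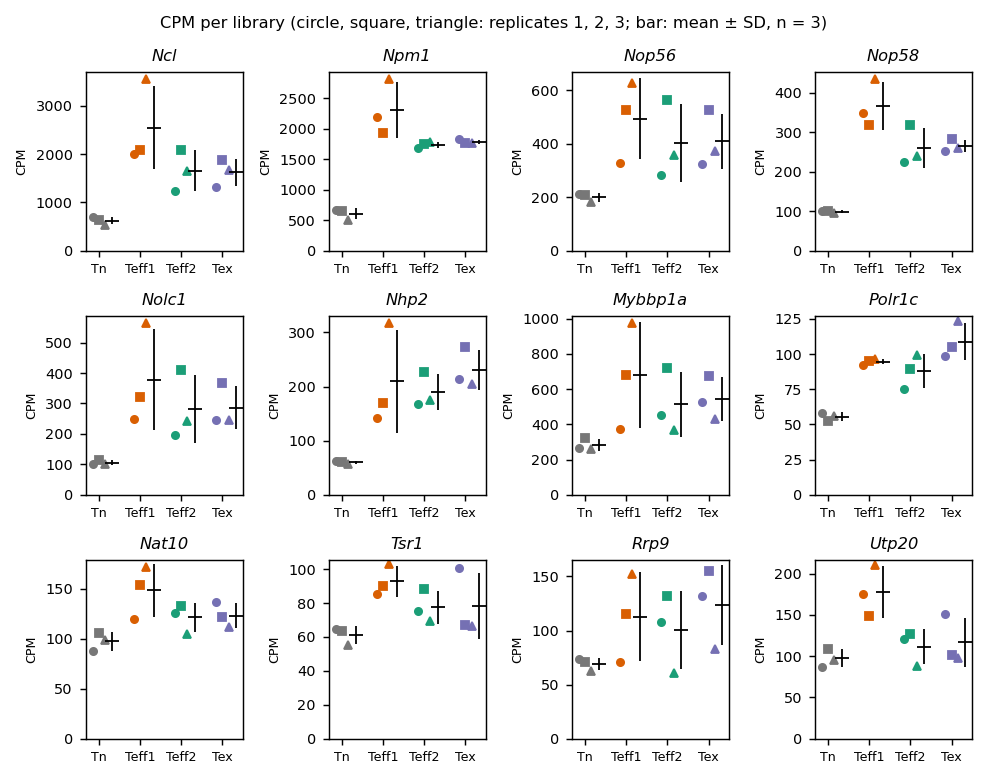
Level in CPM (vertical axis, from 0) of 12 members in each library of the 4 states, with circle, square and triangle for replicates 1, 2 and 3 and a bar for the mean ± SD (n = 3). Ncl and Npm1 had 540 to 692 and 500 to 669 CPM in Tn and at least 1234 and 1681 CPM in the activated libraries. In contrast, Rrp9, Utp20 and Nat10 overlapped Tn in Teff2.

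The libraries of a state differed in these genes as a set. In Teff1, replicate 3 held the highest value of 38 of 39 members, all but Ltv1, and replicate 1 the lowest of 34. The median member stood 0.46 above the mean of the other libraries in Teff1 replicate 3 and 0.48 below it in replicate 1, on a log2 scale with 0.5 CPM added, while the median of all tested genes stood within 0.04 of 0 in each. In Teff2, replicate 2 held the highest value of 35 members, all but Polr1c, Npm1, Nob1 and Noc3l, with a median deviation of 0.55, against -0.27 and -0.24 in replicates 1 and 3. In Tex, replicate 2 was highest for 28 members, with a median deviation of 0.26, against -0.03 and -0.22. In Tn the deviations were smaller, at -0.09, 0.16 and -0.08. Genes of cell division also differed between libraries of a state. The median of a list of 10 such genes stood at -0.36, -0.02 and 0.41 in Teff1 replicates 1, 2 and 3, at -2.43, 1.62 and 0.81 in Teff2, at -1.89, 1.25 and 0.65 in Tex and at 0.49, -0.91 and 0.32 in Tn. In Teff1 and in replicates 1 and 2 of both day 5 states these values had the sign of the members' values, whereas in replicate 3 of both day 5 states and in all Tn libraries they had the opposite sign. Their part in the spread of the members was not tested. Without Teff1 replicate 3 the median rise at day 2 was 0.92 with 34 members called. Of all tested genes 38.4% were called in that fit in either direction, against 48.9% with all libraries.

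**Figure D3:**
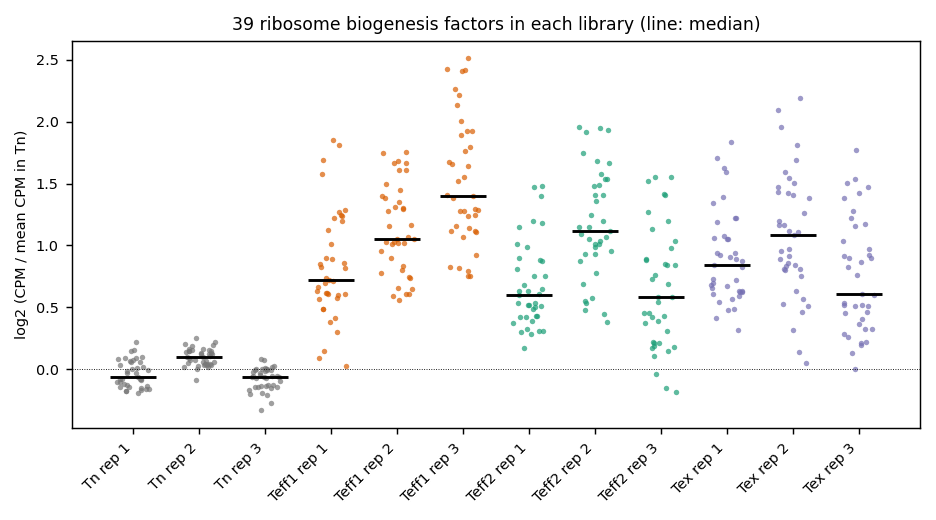
Level of each of the 39 members in each of the 12 libraries, as log2 of its CPM over its mean CPM in Tn; points are genes and the black line is their median. Teff1 replicate 3 and Teff2 replicate 2 stand above the other libraries of their state, and every activated library has its median above every Tn library.

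The second comparison, Teff2 with Teff1, asked what changed between day 2 and day 5 in TIM-3- cells. All 39 fitted values were below 0, with a median of -0.34 on the log2 scale and a range of -0.67 to -0.10. Among all 14332 tested genes, 7086 fitted values were above 0 and the median was -0.0015. However, no member passed the test in edgeR (adjusted p from 0.205 to 0.915), beside 0.558% of all genes called higher and 0.112% called lower. At an unadjusted p under 0.05 there were 8 members lower and none higher, beside 4.33% of all genes lower and 7.58% higher. The 8 became 2 without Teff1 replicate 3 or Teff2 replicate 1, 3 without Teff2 replicate 3, 17 without Teff1 replicate 1 and 22 without Teff2 replicate 2. The share of all genes at this unadjusted threshold was not computed for those fits. These counts can therefore not be set against other genes. In the fits without Teff1 replicate 3, Teff2 replicate 1 and Teff2 replicate 3, the members' medians were -0.13, -0.24 and -0.21. Those of all tested genes were 0, -0.025 and 0. Without Teff1 replicate 1 and without Teff2 replicate 2 the members' medians were -0.47 and -0.59, and those of all tested genes 0.016 and 0. With all libraries, DESeq2 and limma called no member either, beside 2.16% and 0.837% of the genes they fitted, called in either direction. In 5 members, Npm1, Utp18, Utp20, Nop14 and Noc3l, every Teff2 library lay below every Teff1 library, beside 6.19% of all genes with lower, non-overlapping libraries. Utp20, a scaffold of the small-subunit processome (chromosome 10, 88746607 to 88826814), had the lowest fitted value. It had 175, 148 and 210 CPM in Teff1 and 121, 127 and 87.7 CPM in Teff2 (-0.67, SE 0.21, adjusted p = 0.205), and it is named for this value. The median moved to -0.13 without Teff1 replicate 3 and to -0.59 without Teff2 replicate 2, the libraries in which the members were highest.

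The third comparison set TIM-3+ against TIM-3- cells of day 5. No member differed between Tex and Teff2 in edgeR's test (adjusted p = 1 for each, none at an unadjusted p under 0.05), beside 0.00698% of all genes called higher and 0 called lower. The fitted differences ranged from -0.18 to 0.31 with standard errors of 0.13 to 0.33, and no member had libraries that did not overlap, beside 2.46% of all genes with higher and 2.35% with lower, non-overlapping libraries. Replicate numbers paired these libraries, as their deviations from the state mean correlated across genes with r = 0.85, 0.78 and 0.75 for equal numbers. Within pairs the standard errors fell to between 0.07 and 0.13, and still no member was called, beside 0.962% of all genes called higher and 0.725% called lower. At an unadjusted p under 0.05, 7 members stood higher in Tex in that fit and none lower, beside 8.85% of all genes higher and 7.74% lower. The lowest adjusted p, 0.0921, was shared by Polr1c (0.30, SE 0.08) and Rrp9 (0.31, SE 0.08), followed by Nhp2 with 0.27 (SE 0.08, adjusted p = 0.125). Polr1c had 74.9, 89.6 and 99.4 CPM in Teff2 and 98.3, 105 and 124 CPM in Tex, and Rrp9 had 108, 132 and 60.8 CPM in Teff2 and 132, 155 and 82.7 CPM in Tex. In both genes each Tex library stood above the Teff2 library of its own number. Without Teff2 replicate 2 the unpaired median went from 0.06 to 0.27, still with no member called, beside 0% of all tested genes. The pairs differed across the members, since Tex was above Teff2 for 39 of 39 members in pair 1, for 13 in pair 2 and for 33 in pair 3. Each of these counts sets 1 library against 1 other, and the share of all genes was not computed for them.

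**Figure D4:**
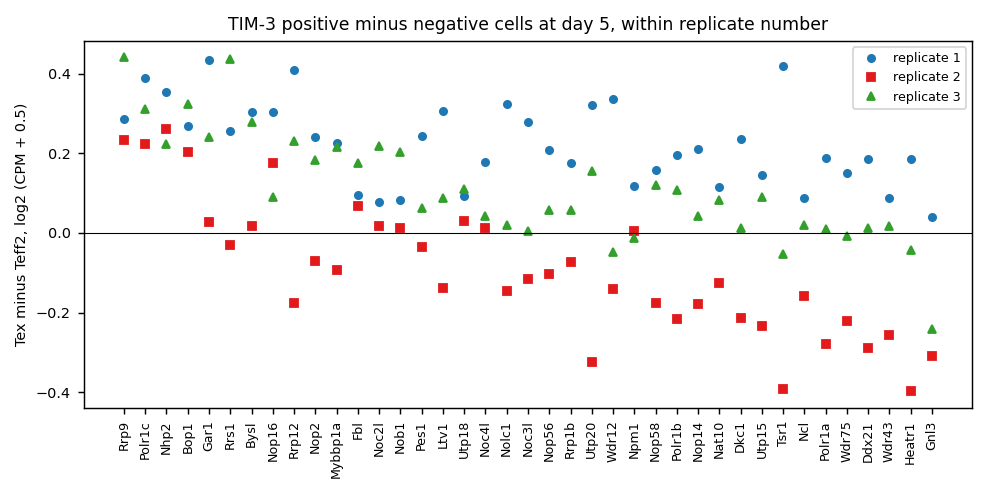
Difference between Tex and Teff2 in each of the 3 replicate pairs, on the log2 (CPM + 0.5) scale, for the 39 members ordered by the paired fit. Pair 1 (circles) lies above 0 for every member, while pair 2 (squares) lies above 0 for 13.

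The last comparisons set day 5 against Tn, and they share the Tn libraries with each other and with the first comparison. In Teff2, 28 of 39 members were higher than in Tn and none was lower, beside 25.6% of all genes called higher and 23.3% called lower. The median was 0.75 on the log2 scale, with a range of 0.20 to 1.67. In Tex, 30 of 39 were higher and none was lower, beside 27.3% and 25.6% of all genes, with a median of 0.84 and a range of 0.26 to 1.95. With Tn replicate 2 as the only Tn library, 7 members were called in Teff2 and 8 in Tex, beside 11.3% and 13.1% of all genes called higher, while the medians were 0.65 and 0.75. Against Tn, the libraries did not overlap in 35 members for Teff2 and in 37 for Tex, beside 29.8% and 32.0% of all genes.

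The 3 members with the smallest p in Teff2 against Tn were Npm1 (1.52, SE 0.18, adjusted p = 5.05e-05), Nop58 (1.39, SE 0.17, adjusted p = 7.39e-05) and Wdr12 (1.36, SE 0.21, adjusted p = 3.11e-04, edgeR). In Tex they were Npm1 (1.56, SE 0.18, adjusted p = 3.60e-05), Nop58 (1.41, SE 0.17, adjusted p = 5.82e-05) and Gar1 (1.55, SE 0.21, adjusted p = 1.38e-04). Nop58 had 225, 319 and 239 CPM in Teff2 and 252, 282 and 260 CPM in Tex, over 95.9 to 102 CPM in Tn. Wdr12 had 45.9, 74.2 and 71.3 CPM in Teff2, and Gar1 had 168, 176 and 132 CPM in Tex. All of these libraries lay above those of Tn. Nhp2 had the largest fitted value at day 5, 1.67 in Teff2 and 1.95 in Tex, with 167, 228 and 175 CPM and 214, 273 and 205 CPM. The box H/ACA group as a whole kept 4 of 4 calls in both day 5 states, with medians of 1.37 and 1.50.

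The members not called at day 5 lay mainly among the processome and large-subunit genes. In Teff2, 5 of 9 processome genes and 5 of 9 large-subunit genes were called, in Tex 5 of 9 and 7 of 9. Utp20 (0.20 in Teff2, adjusted p = 0.464, and 0.26 in Tex, adjusted p = 0.324, edgeR), Nat10 (0.31, adjusted p = 0.137, and 0.34, adjusted p = 0.107) and Tsr1 (0.34, adjusted p = 0.137, and 0.36, adjusted p = 0.117) passed in neither state. Utp20 had 87.2, 109 and 95.9 CPM in Tn and 151, 101 and 97.8 CPM in Tex, so Tex replicates 2 and 3 lay inside the naive range and replicate 1 above it. Rrp9 was called in Tex (0.84, SE 0.33, adjusted p = 0.0489) and not in Teff2 (0.54, SE 0.33, adjusted p = 0.193), with the Tex call lost when any of the 3 Tn libraries or Tex replicates 1 or 2 was left out. The difference of Rrp9 between Tex and Teff2 itself was not called. Leaving out Tn replicate 3 ended 9 of the 28 calls in Teff2, and leaving out Tn replicate 1 or 3 ended 8 of the 30 in Tex in each case. Of all tested genes 39.8% were called in that fit of Teff2 in either direction, against 48.9% with all libraries. In Tex the shares were 45.2% and 44.3%, against 52.9%. Fbl, Mybbp1a, Polr1a, Wdr75 and Rrp12 were among the calls that ended in both states in at least 1 fit without 1 library.

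Other genes of the pathway, 121 from 5 lists that leave out the members, were read in the same fit. At day 2, 80 of 121 were higher and 2 were lower, with a median of 0.77 on the log2 scale. Among all tested genes 24.5% were called higher and 24.5% lower. Of other snoRNP proteins and their assembly factors 10 of 11 rose (median 0.95), of exosome subunits and cofactors 10 of 13 (0.86), of other large-subunit factors 27 of 41 (0.78) and of other processome and small-subunit factors 25 of 39 (0.64), and none of these fell. Nhp2l1, which binds box C/D snoRNAs, rose from 70.6 ± 8.46 to 190 ± 65.9 CPM (SD, n = 3 each, log2 change 1.43, adjusted p = 5.86e-04, edgeR). Pdcd11, a processing factor of both subunits, rose from 127 ± 9.71 to 198 ± 53.9 CPM (0.64, adjusted p = 0.0293). Among the exosome genes, Exosc10, its nuclear nuclease, had 113 ± 3.65 CPM in Tn and 142 ± 17.6 CPM in Teff1 and did not pass the test (0.33, adjusted p = 0.180). Gltscr2, a late large-subunit factor, had 558 ± 67.2 CPM in Tn and 435 ± 69.9 CPM in Teff1 (-0.36, adjusted p = 0.0873).

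The remaining RNA polymerase I genes went in both directions. Of 17 subunits and initiation, termination and accessory factors, 8 rose and 2 fell at day 2, beside 24.5% of all tested genes in each direction. Tcof1, the nucleolar protein treacle, which promotes rRNA transcription, rose from 263 ± 20.3 to 446 ± 90.1 CPM (SD, n = 3 each, log2 change 0.76, adjusted p = 0.0236, edgeR). Taf1c, a subunit of the factor that places the polymerase at the rRNA gene promoter, fell from 52.2, 61.3 and 63.1 CPM to 23.9, 32.8 and 33.2 CPM (-0.97, SE 0.29, adjusted p = 0.0160). Ttf1, which ends transcription of the rRNA genes, fell from 60.3, 61.6 and 65.8 CPM to 43.3, 48.5 and 40.02 CPM (-0.51, SE 0.13, adjusted p = 0.00801). In both genes all Teff1 libraries lay below all Tn libraries. Both also stood lower in Teff2 and in Tex than in Tn.

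Myc, which encodes a transcription factor of growth genes, had 122.5, 149 and 123 CPM in Tn, against 404, 506 and 453 CPM in Teff1. At day 5 it had 447, 470 and 277 CPM in Teff2 and 463, 493 and 316 CPM in Tex, all above Tn. It rose by 1.79 at day 2 (SE 0.23, adjusted p = 1.19e-04, edgeR) and stood 1.60 and 1.69 above Tn in Teff2 and Tex. Max, its partner on the E-box, had 106, 139 and 130 CPM in Tn, against 126, 166 and 213 CPM in Teff1, and these libraries overlapped. Its fitted differences from Tn were 0.42 in Teff1 (adjusted p = 0.137), -0.05 in Teff2 (adjusted p = 0.878) and -0.19 in Tex (adjusted p = 0.502). The highest Teff1 library of Myc was replicate 2, whereas that of 38 members was replicate 3. Its lowest Teff1 library was replicate 1, as for 34 members. In Teff2 and in Tex its highest library was replicate 2, as for 35 and 28 members. The part of Myc in the changes of the members was not tested.

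Genes of ribosomal proteins, the proteins that are built into ribosomes, were read in the same fit. Of 79 cytosolic ribosomal protein genes tested, 13 were higher and 2 lower in Teff1 than in Tn, with a median of 0.04 on the log2 scale. Of 77 mitochondrial ribosomal protein genes 65 were higher and 1 lower, with a median of 0.94. Among all tested genes 24.5% were called higher and 24.5% lower. The members had 38 of 39 and 1.12, and the difference between these lists was not tested. Many cytosolic ribosomal protein genes have processed copies in the genome, so their counts are uncertain where multiply matching reads are concerned.

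**Figure D5:**
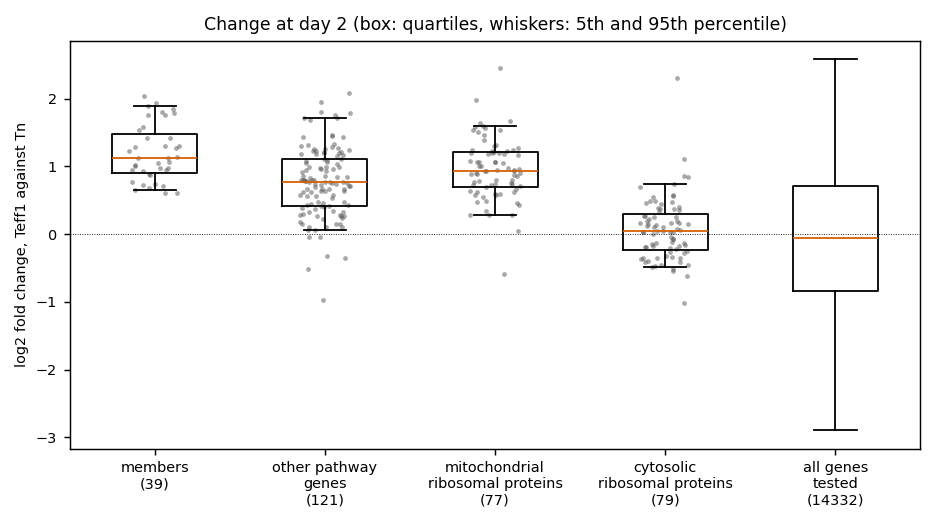
Log2 fold change of Teff1 against Tn for the 39 members, the other 121 pathway genes, 77 mitochondrial and 79 cytosolic ribosomal protein genes and all 14332 tested genes; boxes are quartiles, whiskers the 5th and 95th percentile and points single genes. The medians are 1.12, 0.77, 0.94, 0.04 and -0.06 in that order.

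The introns of several members hold genes of small nucleolar RNAs. The count table lists 11 such RNAs within the spans of 6 members, with 0 to 163 counts summed over the 3 libraries of a state, 2 of them at 0 throughout. Summed over the 11, the Tn libraries held 397 counts, those of Teff1 590, of Teff2 443 and of Tex 385, over libraries of unequal depth. Whether the library protocol kept RNAs this short is not stated, so they are given as counts only. The spans of 11 members overlap 13 protein-coding genes, such as Idh3b at Nop56 and Caprin1 at Nat10, and since the counting is not stated to use strand, reads in the overlaps cannot be assigned to either gene. The 39 genes lie on 17 chromosomes, with 6 on chromosome 11 and 5 on chromosome 1.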

How the data were processed

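Bulk RNA-seq of 12 libraries of mouse CD8+ T cells was analysed, 3 each of Tn, Teff1, Teff2 and Tex, grouped by the labels. The authors deposited raw counts per gene symbol for every library, and a matrix of log2 normalized values for 21574 genes whose transformation is not given in the sources used here. Per the submitters' processing notes, HISAT2, HTSeq and DESeq2 were used with the build mm10; versions, roles, annotation, strand setting and the treatment of multiply mapped reads are not given there. The 39 members, the other gene lists and the tests were chosen with earlier results of these data known.

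The deposited counts were filtered with edgeR's filterByExpr (14332 genes kept), scaled by TMM and fitted with edgeR 4.0.16 (quasi-likelihood, R 4.3.3) in 1 model of 4 groups without a block; p-values were adjusted by Benjamini-Hochberg over all genes and called under 0.05. Standard errors are the log2 fold change over the root of F. CPM use the TMM scaling, except marker sums, which use plain totals. Each library held 14.7 to 21.2 M counts. Full values were given for the highest 2 members by mean CPM of each role group, members not called at day 2, the 3 largest and 3 smallest rises, and the 3 called members of smallest p in each later comparison that called any; other members named with full values were chosen after their values were seen. For the other pathway lists the gene of highest mean CPM and those called lower were named. Some list genes were matched under older symbols (2610027L16Rik, Mki67ip, Emr1), and Taf1a and Exosc6 were not matched.

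Replicate numbers in the labels paired Tex with Teff2, since equal numbers correlated in their deviations from the group mean in all 3 pairs (r = 0.85, 0.78 and 0.75) and unequal ones by at most 0.12. A fit with the replicate number as a block was run on the 6 day 5 libraries. DESeq2 1.42.0, limma 3.58.1 on the deposited log2 values, other scalings, no filter and left-out libraries were alternatives. The procedure was tested on simulated counts in which few genes were changed and genes varied independently. That test does not cover genes that move together by library, as the members did. Promoter sequences are from RefSeq, build GRCm38.p6.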

Additional observations from a re-analysis of the deposited data

How the results depend on the processing

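Under every alternative run, all 39 members kept fitted values above 0 in Teff1 and in Teff2 against Tn, and none was called lower in any comparison. Leaving out 1 library at a time gave 34 to 39 called members in Teff1 against Tn (median 0.92 to 1.24). It gave 19 to 30 in Teff2 (0.62 to 0.86) and 22 to 31 in Tex (0.72 to 0.90) against Tn. In these fits 38.4% to 48% of all tested genes were called in either direction in Teff1, 39.6% to 50.8% in Teff2 and 44.1% to 53.5% in Tex. With all libraries the shares were 48.9%, 48.9% and 52.9%. No member was called in the other comparisons, with medians of -0.59 to -0.13 for Teff2 against Teff1 and -0.04 to 0.27 for Tex against Teff2. Few genes of any kind were called there in either direction. The shares of all tested genes were 0.153% to 0.707% for Teff2 against Teff1 and 0% to 0.00664% for Tex against Teff2. With Tn replicate 2 as the only naive library, 12, 7 and 8 members were called. Tests of limma on the deposited log2 values called 38 members in Teff1, beside 49.5% of all tested genes in either direction. Their medians against Tn were smaller, at 0.78, 0.51 and 0.57. The cause was not tested. Upper-quartile scaling moved the median of all genes to -0.20, -0.11 and -0.12 and left 36, 23 and 25 members called. It called 49.7%, 49% and 53.2% of all tested genes in either direction. DESeq2 called 38, 28 and 30 members, beside 32.8%, 32.9% and 35.7% of the 23038 genes it fitted. With the replicate number as a block in all 12 libraries, 38 members were called in Teff1, 30 in Teff2 and 35 in Tex against Tn. That fit called 56.2%, 55.7% and 59.6% of all tested genes in either direction. With the block on the 6 libraries compared, 38, 28 and 34 members were called, beside 51.7%, 45.5% and 53.1% of all tested genes. No member was called there between Teff2 and Teff1 or Tex and Teff2, beside 2.13% and 1.69% of all tested genes called in either direction. The replicate numbers paired only Tex with Teff2. Between Teff2 and Teff1 some fitted values turned positive. Over the fits without 1 library, Rrp9 ranged from -0.43 to 0.11, Nhp2 from -0.36 to 0.29, Nop2 from -0.48 to 0.069, Nop16 from -0.47 to 0.33, Noc2l from -0.45 to 0.050 and Rrp1b from -0.36 to 0.0089, the highest value being that without Teff1 replicate 3. Without Teff2 replicate 3, Rrp9 was at 0.09. Without both Teff1 replicate 3 and Teff2 replicate 2, a setting chosen after seeing the data, they were Nhp2 (0.10) and Nop16 (0.10). Without replicate 1 of all 4 groups, Utp20 was at -0.052 in Tex against Tn. The causes were not tested. With 3 libraries per state and a lowest member count of 329, the effect of depth was not tested.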
